A study of Mus musculus with 12 samples.

Results

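Collagen chains and the enzymes that modify, cross-link and process them were examined in a mouse model of medium transfer between pancreatic cancer cells and pancreatic stellate cells. The members were all genes of the PSC4 count table whose symbol is that of a collagen chain (Col, a number, a, a number), together with Lox, Loxl1 to Loxl4, Plod1 to Plod3, P4ha2, P4ha3, Serpinh1 and Bmp1. This gave 51 of the 16386 genes in that table, 39 of them collagen chains and 12 of them enzymes, a chaperone and a propeptidase. Of these, 40 also had a row in the KPC4 table. Col10a1, Col22a1, Col25a1, Col28a1, Col2a1, Col5a2, Col6a4, Col6a6, Col8a2, Lox and Loxl1 had none and were not analysed in KPC4. Col13a1, Col19a1, Col6a5, Col9a1 and Col9a2 were not analysed here.

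PSC4 is a line of mouse pancreatic stellate cells, the matrix-producing stromal cells of the pancreas, and KPC4 is a mouse pancreatic adenocarcinoma line. Donor KPC4 cells received 10 µM gemcitabine, a nucleoside analogue used as chemotherapy, or vehicle for 6 h, were washed, and conditioned starvation medium for 14 h. These supernatants, Gem-SU and Control-SU, were put on PSC4 cells for 24 h before RNA was taken. For the second step, PSC4 cells were exposed to either supernatant for 6 h, washed, and conditioned fresh starvation medium for 18 h, and KPC4 cells were kept for 24 h in the resulting Gem-PSC-SU or Control-PSC-SU. Each of the 4 groups held 3 libraries that the labels call biological replicates. All groups are single cell lines grown in monoculture in the same serum-containing medium before the transfer, and every recipient, controls included, received conditioned medium.

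Collagens are built from 3 chains wound into a helix. Fibrillar types I, II, III, V, XI, XXIV and XXVII form or take part in fibrils. Type IV forms the network of basement membranes, and type VI forms beaded filaments around cells. The FACIT collagens (fibril-associated collagens with interrupted triple helices) decorate fibrils. In the endoplasmic reticulum, prolyl 4-hydroxylases stabilise the helix, lysyl hydroxylases (Plod genes) prepare cross-link sites, and the chaperone Hsp47 (Serpinh1) holds the folded procollagen. Outside the cell Bmp1 removes the carboxyl propeptide and the lysyl oxidases (Lox and Loxl genes) start cross-linking. Activated stellate cells are known as a main source of fibrillar collagen in the stroma of pancreatic cancer.

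Library totals lay between 29559414 and 38138356 counts in PSC4 and between 26354328 and 34744150 counts in KPC4. Markers of mesenchymal and stellate cells were abundant in PSC4, with Vim at 1671 ± 363 CPM, Pdgfra at 1258 ± 138 CPM and Pdgfrb at 213 ± 12 CPM with Control-SU (SD, n = 3), while Acta2 and Des, which mark activated and quiescent stellate cells, were low at 15.7 ± 2.75 and 2.84 ± 0.152 CPM. CPM is the usual depth-scaled count, here relative to a library total adjusted by TMM within each line. KPC4 expressed epithelial markers, whose 8 members with a row summed to 6820 ± 751 CPM with Control-PSC-SU, and it also expressed Vim at 2588 ± 191 CPM.

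The regulatory sequence in front of 3 members is shown because these genes stand for the patterns described below: Col1a2 and Col3a1 are fibrillar chains that fell in PSC4 exposed to Gem-SU, and Loxl4 is the only lysyl oxidase that rose there. RefSeq promoters were matched for 36 of the 51 members, on build GRCm38.p6. Each sequence is the 250 bases before the transcription start, written 5′ to 3′ on the gene's strand, at chr6:4505368-4505617 (plus strand) for Col1a2, chr1:45311288-45311537 (plus strand) for Col3a1 and chr19:42612807-42613056 (minus strand) for Loxl4. Capitals mark matches on either strand to CCAAT (the box of that name), to GGGCGG (the GC box), to TGANTCA (the core of AP-1 sites) and to TATAAA (the TATA box). No match in these windows overlapped another.
Col1a2: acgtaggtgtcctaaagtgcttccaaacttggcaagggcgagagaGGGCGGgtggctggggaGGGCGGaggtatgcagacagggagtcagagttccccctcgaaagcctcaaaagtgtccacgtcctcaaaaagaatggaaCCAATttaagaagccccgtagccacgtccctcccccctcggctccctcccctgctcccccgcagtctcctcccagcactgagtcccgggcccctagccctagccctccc
Col3a1: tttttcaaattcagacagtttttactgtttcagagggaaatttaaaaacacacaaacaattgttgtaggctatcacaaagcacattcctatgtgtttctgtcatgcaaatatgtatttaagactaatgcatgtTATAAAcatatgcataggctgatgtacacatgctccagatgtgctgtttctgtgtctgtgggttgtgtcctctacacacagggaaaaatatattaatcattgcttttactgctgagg
Loxl4: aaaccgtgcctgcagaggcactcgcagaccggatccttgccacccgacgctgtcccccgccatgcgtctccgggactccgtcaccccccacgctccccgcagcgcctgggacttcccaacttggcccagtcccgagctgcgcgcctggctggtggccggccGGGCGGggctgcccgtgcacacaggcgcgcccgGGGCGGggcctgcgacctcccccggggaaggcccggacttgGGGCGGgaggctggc
Col1a2 holds a CCAAT that begins 109 bases before the start and GGGCGG at 205 and 188 bases before it. Col3a1 holds TATAAA at 117 bases before the start and none of the other motifs. Loxl4 holds GGGCGG at 89, 56 and 15 bases before the start. Among the matched members, GGGCGG was found in 24 of 36 members (66.7%) against 32.7% of all 32851 RefSeq promoters. It was found in 8 of 12 members that fell in PSC4, in 3 of 3 that rose and in 11 of 17 that were tested and not called. CCAAT was found in 13 of 36 members (36.1%) against 33.9% of all promoters, and in 4 of 12 that fell against 9 of 17 not called. TGANTCA was found in 1 of 36, Col6a1, against 6.75% of all promoters, and TATAAA in 5 of 36 against 12.4%. These are letter matches in one window per start site and describe no binding. Members were counted by gene, over all their start sites, and all RefSeq promoters by window.

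The first comparison asked how the transcripts of stellate cells differ when the tumour cells that conditioned their medium had received gemcitabine and not vehicle. In PSC4, most fibrillar collagens, the 3 main type VI chains and several lysyl oxidases fell with Gem-SU, the main type IV chains did not pass the test, and Plod2, Loxl4 and a few scarce collagen chains rose. Of the 51 members, 45 passed the filter on low counts and were tested, and 25 had an adjusted p under 0.05, 7 higher and 18 lower. That is 55.6% of those tested, beside 46.3% of all 13347 genes tested in PSC4, with 24.3% of all genes higher and 22% lower. The share of members called was close to the background, and most of the called members were lower. Groups did not overlap for 26 of the 45 members, 8 above and 18 below, beside 56.4% of all genes, 29.3% above and 27.1% below. The median log2 fold change was -0.45 over the tested members and -0.00 over all genes. Adjusted p-values come from edgeR's quasi-likelihood test in its robust form, adjusted over all genes by Benjamini-Hochberg, and log2 fold changes are Gem minus Control. Col4a3, Col4a4, Col6a6, Col8a2, Col24a1 and Col26a1 were too scarce to test, with at most 16 counts in any PSC4 library.

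**Figure D1:**
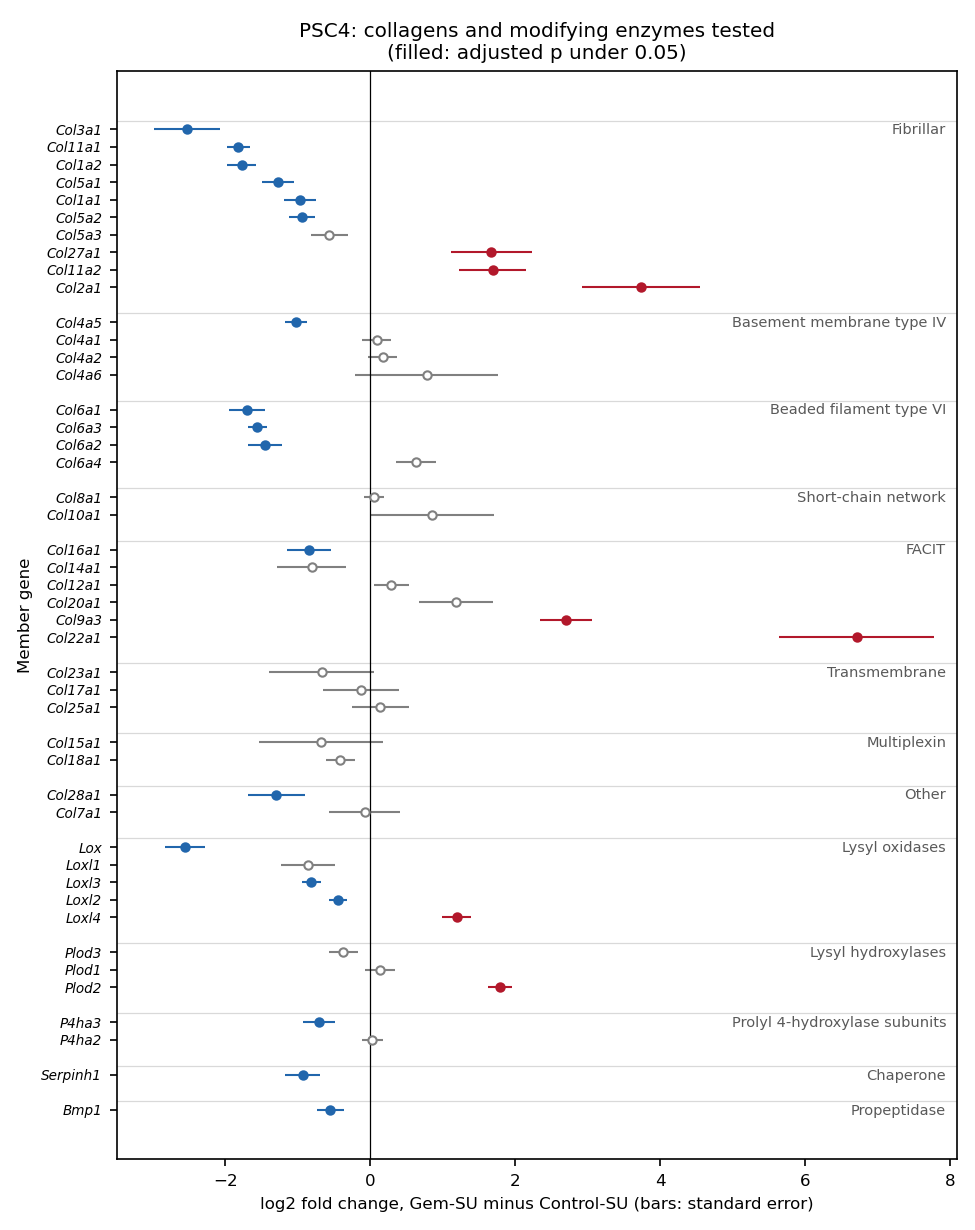
Change of each of the 45 tested members in PSC4, grouped by collagen class or enzyme family. The horizontal axis is the log2 fold change of Gem-SU against Control-SU with its standard error, filled points are members past an adjusted p of 0.05 (blue lower, red higher) and open points did not pass. Fibrillar and type VI chains lie mostly left of 0, and Col2a1, Col9a3 and Col22a1 lie farthest right.

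Per length of transcript, Col1a1 was the most abundant member in PSC4 with Control-SU, at 571 ± 84.8 RPKM (SD, n = 3), where RPKM is the CPM divided by the length in kilobases of the principal GENCODE transcript. It was followed by Serpinh1 at 342 ± 67.0, Col6a1 at 201 ± 9.68, Lox at 184 ± 17.9 and Col3a1 at 178 ± 42.1 RPKM. Lox and Col3a1 did not differ beyond their spread, and neither did Col6a1 from them. Col1a2 stood at 108 ± 13.1, Loxl1 at 101.2 ± 38.1, Col5a2 at 90.8 ± 16 and Col6a2 at 73.7 ± 3.29 RPKM, with Col4a1 at 50.6 ± 10.6 and Col4a2 at 34.3 ± 7.23 RPKM. With Gem-SU, Col1a1 remained first at 291 ± 48.4 RPKM, Serpinh1 stood at 179 ± 49.6, and Col4a1 at 53.7 ± 7.55 RPKM lay above Col1a2 at 31.7 ± 6.63, Lox at 31.4 ± 12.2 and Col3a1 at 30.9 ± 21.9 RPKM.

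Of the 10 fibrillar chains tested in PSC4, 6 fell and 3 rose, and Col5a3 did not pass (log2 fold change -0.56, adjusted p = 0.103 in edgeR's quasi-likelihood test). Their median log2 fold change was -0.96, beside -0.00 over all genes, of which 22% were called lower and 24.3% higher. Col1a1, the main chain of type I collagen (ENSMUSG00000001506), was at 3756, 2815 and 3593 CPM with Control-SU and at 2018, 1718 and 1444 CPM with Gem-SU. All 3 Gem-SU libraries lay below all 3 Control-SU libraries, and Col1a1 fell from 3388 ± 503 to 1727 ± 287 CPM (SD, n = 3; log2 fold change -0.97, SE 0.22, edgeR adjusted p = 0.0069). Col1a2, which pairs with it in type I collagen (ENSMUSG00000029661), was at 610, 500 and 630 against 208, 163 and 138 CPM. The groups were far apart, and Col1a2 fell 3.42-fold (log2 fold change -1.77, SE 0.20, edgeR adjusted p = 0.000309). Col3a1, the type III chain (ENSMUSG00000026043), was at 1252, 802 and 918 against 312, 115 and 89.5 CPM. It fell 5.76-fold (log2 fold change -2.53, SE 0.46, edgeR adjusted p = 0.00258), and the first Gem-SU library stood well above the other two. Without that library the log2 fold change was -3.28 (edgeR adjusted p = 3.37e-05).

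Type V chains, which nucleate type I fibrils, also fell. Col5a1 (ENSMUSG00000026837) was at 300, 187 and 282 CPM with Control-SU and at 127, 105 and 86.9 CPM with Gem-SU, without overlap (log2 fold change -1.27, SE 0.22, edgeR adjusted p = 0.00219). Col5a2 (ENSMUSG00000026042) was at 687, 482 and 635 against 348, 288 and 303 CPM, a fall of 0.94 on the log2 scale (SE 0.18, edgeR adjusted p = 0.00371). Its groups did not overlap either. Col11a1, a type XI chain of the same subfamily (ENSMUSG00000027966), was at 38.4, 44.0 and 42.4 against 12.6, 11.0 and 11.7 CPM, with little spread within each group. Col11a1 fell by 1.82 on the log2 scale (SE 0.16, edgeR adjusted p = 0.000104).

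The 3 fibrillar chains that rose were scarce in PSC4, none above 4.42 CPM in any library. Col2a1, the chain of cartilage type II collagen (ENSMUSG00000022483), had 10, 0 and 10 counts with Control-SU and 131, 107 and 51 counts with Gem-SU (log2 fold change 3.74, SE 0.82, edgeR adjusted p = 0.00604). Its fitted fold rests on few control counts, and without Control-SU replicate 2, the library at 0, the log2 fold change was 3.14 (edgeR adjusted p = 0.00301). Col11a2, the second type XI chain (ENSMUSG00000024330), was at 1.19, 0.916 and 0.455 against 1.84, 3.31 and 3.18 CPM, and Col27a1, another cartilage-associated fibrillar chain (ENSMUSG00000045672), at 1.77, 1.07 and 0.358 against 3.77, 4.42 and 2.07 CPM. The groups did not overlap for any of these chains. Col11a2 rose by 1.69 (SE 0.46, edgeR adjusted p = 0.0166) and Col27a1 by 1.67 on the log2 scale (SE 0.56, edgeR adjusted p = 0.0374). Both calls rested on single libraries: without Gem-SU replicate 2 the edgeR adjusted p was 0.0725 for Col11a2 and 0.132 for Col27a1, without Control-SU replicate 3 it was 0.0561 and 0.0832, without Gem-SU replicate 3 it was 0.0544 for Col11a2 (and 0.143 in one fit over all 12 libraries), and without Control-SU replicate 2 or Gem-SU replicate 1 it was 0.0833 or 0.0625 for Col27a1.

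**Figure D2:**
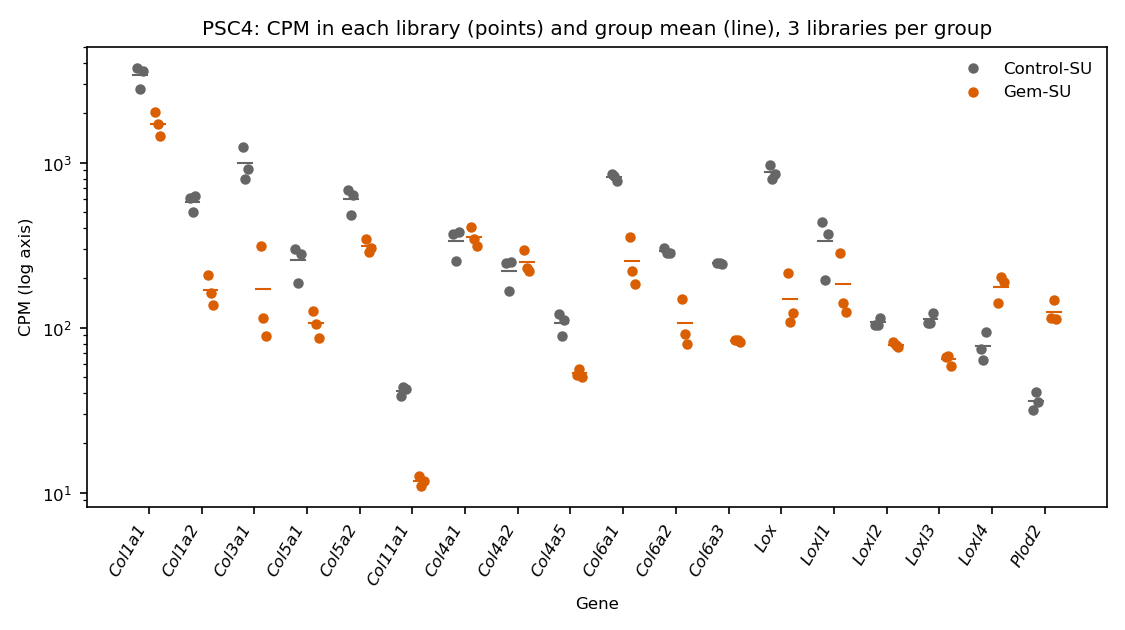
Level of 18 members in each of the 6 PSC4 libraries, in CPM on a logarithmic axis, with Control-SU and Gem-SU as separate points and a bar at each group mean. Col1a1, Col1a2, Col3a1, Col6a1, Col6a3 and Lox show Gem-SU libraries wholly below Control-SU libraries, Col4a1 and Col4a2 show overlapping groups, and Loxl4 and Plod2 show Gem-SU libraries wholly above.

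Of 4 tested type IV chains, the collagen of basement membranes, 1 fell and none rose, beside 22% of all genes lower and 24.3% higher. Col4a1 (ENSMUSG00000031502), the chain that forms the common type IV network with Col4a2, was at 368, 254 and 382 CPM with Control-SU and at 410, 346 and 311 CPM with Gem-SU. Its groups overlapped, and the log2 fold change was 0.09 (SE 0.20, edgeR adjusted p = 0.745). Col4a2 (ENSMUSG00000031503) was at 245, 167 and 250 against 297, 230 and 220 CPM, also with overlap (log2 fold change 0.17, SE 0.20, edgeR adjusted p = 0.513). These tests do not show that the levels were equal. In the RefSeq annotation the pair starts head to head on chromosome 8, at 11312826 on the minus strand for Col4a1 and at 11312805 on the plus strand for Col4a2 (GRCm38.p6), so that 22 bases are covered by both. Whether counting used strand is not given in the sources used here. Col4a5, an X-linked chain of the other type IV networks (ENSMUSG00000031274), was at 122, 89.3 and 112 against 51.9, 56.7 and 50.1 CPM. Its groups did not overlap, and it fell by 1.02 on the log2 scale (SE 0.16, edgeR adjusted p = 0.0011).

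Of type VI collagen, 3 of 4 tested chains fell and Col6a4 did not pass (log2 fold change 0.63, edgeR adjusted p = 0.09). Over all genes tested in PSC4, 22% were called lower. Col6a1 (ENSMUSG00000001119) was at 858, 836 and 781 CPM with Control-SU and at 355, 222 and 185 CPM with Gem-SU (log2 fold change -1.70, SE 0.25, edgeR adjusted p = 0.000954). Col6a2 (ENSMUSG00000020241) was at 306, 284 and 283 against 149, 91.9 and 79.4 CPM (log2 fold change -1.45, SE 0.24, edgeR adjusted p = 0.00153). In both genes the first Gem-SU library was the highest of its group and still lay below every Control-SU library. Col6a3, the longest chain of the type VI monomer (ENSMUSG00000048126), was at 248, 248 and 244 against 84.4, 84.3 and 82.3 CPM. Its spread was small in both groups, and it fell 2.95-fold (log2 fold change -1.56, SE 0.13, edgeR adjusted p = 8.14e-05).

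Among the remaining classes few members passed. Of 6 FACIT chains 2 rose and 1 fell, beside 46.3% of all genes called. Col9a3, a chain of cartilage type IX collagen (ENSMUSG00000027570), was at 0.841, 0.505 and 0.618 CPM with Control-SU and at 4.81, 4.84 and 3.22 CPM with Gem-SU. It rose 6.51-fold without overlap from a low level (log2 fold change 2.70, SE 0.36, edgeR adjusted p = 0.000647). Col22a1, a FACIT chain known from tissue junctions, had 1 count over the Control-SU libraries and 156 over the Gem-SU libraries, a ratio of 152 with a 95% exact interval of 26.9 to 6051 that covers counting error only (edgeR adjusted p = 0.00103). Col16a1 averaged 164 ± 59.8 against 90.8 ± 25.8 CPM (SD, n = 3) and passed narrowly (log2 fold change -0.85, SE 0.30, edgeR adjusted p = 0.0481). Without Control-SU replicate 1 or 3, or Gem-SU replicate 2 or 3, it was no longer called. Col22a1, Col16a1 and the enzymes below that are not lysyl oxidases or Plod2 were singled out after their values were seen. Col28a1, a beaded-filament-related chain (ENSMUSG00000068794), was at 4.23, 3.92 and 3.09 against 2.29, 1.35 and 0.915 CPM, without overlap. Col28a1 fell by 1.29 on the log2 scale (SE 0.39, edgeR adjusted p = 0.0249), a call lost without Control-SU replicate 1 (adjusted p = 0.0752), Gem-SU replicate 2 (0.0913) or Gem-SU replicate 3 (0.0709). None of the 2 tested short-chain, 3 transmembrane and 2 multiplexin collagens was called. Among them Col8a1, a short-chain collagen of vessel and corneal matrix, averaged 176 ± 15.9 and 183 ± 8.70 CPM (log2 fold change 0.06, SE 0.14, edgeR adjusted p = 0.751).

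Of the 12 enzymes and helpers, 6 fell and 2 rose, beside 22% of all genes lower and 24.3% higher. Of 5 lysyl oxidases, 3 fell and 1 rose in PSC4. Lox, the founding member of the family (ENSMUSG00000024529), was at 966, 799 and 858 CPM with Control-SU and at 215, 109 and 123 CPM with Gem-SU. The groups were far apart, and Lox fell 5.87-fold, about as much as Col3a1 (log2 fold change -2.55, SE 0.28, edgeR adjusted p = 0.000258). Loxl3 (ENSMUSG00000000693) was at 108, 107 and 123 against 66.4, 67.9 and 58.5 CPM, without overlap (log2 fold change -0.81, SE 0.14, edgeR adjusted p = 0.00176). Loxl2, which also cross-links type IV collagen (ENSMUSG00000034205), was at 104, 103 and 115 against 81.5, 78.4 and 76.7 CPM (log2 fold change -0.45, SE 0.13, edgeR adjusted p = 0.0181). This smaller fall was not called without Control-SU replicate 3 (adjusted p = 0.0592), Gem-SU replicate 2 (0.0836) or Gem-SU replicate 3 (0.0669), or in one fit over all 12 libraries (0.0639).

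Loxl1, the family member known for elastic fibres (ENSMUSG00000032334), was at 439, 195 and 368 CPM with Control-SU and at 286, 142 and 125 CPM with Gem-SU. Its groups overlapped and it did not pass (log2 fold change -0.86, SE 0.38, edgeR adjusted p = 0.0924). It passed without Control-SU replicate 2 (adjusted p = 0.0293), without Gem-SU replicate 1 (0.00686) and with DESeq2 (0.0308). Loxl4 (ENSMUSG00000025185) went the other way, at 74.8, 63.7 and 94.9 against 141, 202 and 190 CPM. Every Gem-SU library lay above every Control-SU library, and Loxl4 rose 2.28-fold (log2 fold change 1.19, SE 0.20, edgeR adjusted p = 0.00188). Summed over the family, lysyl oxidases took 0.150 ± 0.0263% of the counts with Control-SU and 0.0660 ± 0.0120% with Gem-SU (SD, n = 3).

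Of the 3 lysyl hydroxylases only Plod2 passed. Plod2, which hydroxylates lysines of the telopeptides and so sets the kind of cross-link (ENSMUSG00000032374), was at 32.0, 40.9 and 35.6 CPM with Control-SU and at 115, 147 and 114 CPM with Gem-SU. The groups were well separated, and Plod2 rose 3.47-fold (log2 fold change 1.79, SE 0.17, edgeR adjusted p = 0.000131). Plod1, which acts on the helix, averaged 70.9 ± 11.9 against 77.9 ± 18.7 CPM, and Plod3, which also transfers sugars to hydroxylysine, 163 ± 30.5 against 126 ± 26.9 CPM (SD, n = 3; edgeR adjusted p = 0.617 and 0.172). Of the prolyl 4-hydroxylase subunits, P4ha2 averaged 46.6 ± 2.36 and 47.6 ± 6.26 CPM, while P4ha3 fell from 8.71 ± 0.473 to 5.31 ± 0.921 CPM (log2 fold change -0.71, SE 0.22, edgeR adjusted p = 0.0276). Serpinh1, the collagen chaperone, was at 905, 609 and 820 against 534, 369 and 319 CPM. The groups did not overlap, and Serpinh1 fell by 0.93 on the log2 scale (SE 0.24, edgeR adjusted p = 0.0134). Bmp1, the procollagen C-proteinase, fell from 156 ± 20.5 to 107 ± 20.7 CPM (log2 fold change -0.55, SE 0.18, edgeR adjusted p = 0.0357). Without Gem-SU replicate 2 none of P4ha3, Serpinh1 and Bmp1 was called, and P4ha3 and Bmp1 were also lost without Control-SU replicate 1 or 3 or Gem-SU replicate 3.

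As a share of all counts, collagen chains together made up 0.947, 0.674 and 0.881% of the PSC4 libraries with Control-SU and 0.488, 0.393 and 0.337% with Gem-SU. The groups did not overlap, and the mean was 2.05-fold lower (0.834 ± 0.143 against 0.406 ± 0.0766%, SD, n = 3). Fibrillar chains gave most of this, at 0.590 ± 0.113 against 0.258 ± 0.0503%, and type VI chains went from 0.135 ± 0.00704 to 0.0454 ± 0.0129%. The type IV share was 0.0661 ± 0.0152% with Control-SU and 0.0664 ± 0.00936% with Gem-SU, less apart than the libraries of either group. In bulk RNA, fewer cells of a type and less RNA per cell cannot be told apart.

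Count ratios of chains that assemble together were compared library by library. The ratio of Col1a1 to Col1a2 counts was 6.16, 5.63 and 5.70 in the Control-SU libraries and 9.71, 10.5 and 10.5 in the Gem-SU libraries. The groups did not overlap (log2 of the ratio 0.81 higher, two-sided exact permutation p = 0.1, 0.12 after Benjamini-Hochberg adjustment over 6 ratios). With 3 libraries against 3, 0.1 is the smallest p this test can give. The ratio of Col6a1 to Col6a2 averaged 2.83 ± 0.0928 against 2.38 ± 0.0444, and that of Col5a1 to Col5a2 0.422 ± 0.0309 against 0.339 ± 0.0452 (SD, n = 3; exact permutation p = 0.1 for each). For Col4a1 to Col4a2 the ratio was 1.51 ± 0.0137 against 1.43 ± 0.0623 (exact permutation p = 0.2).

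**Figure D3:**
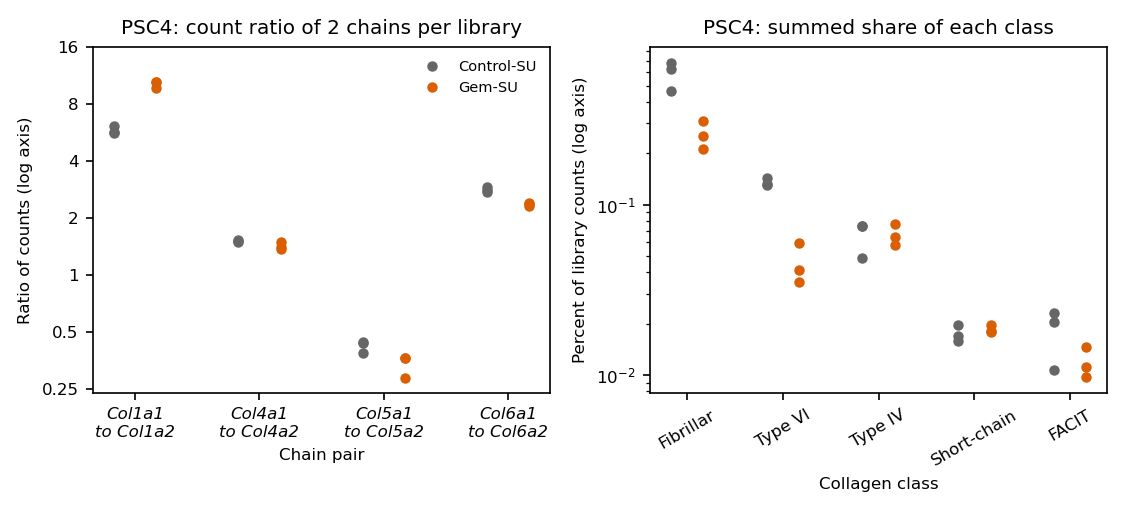
Left, count ratios of chains that assemble together in each PSC4 library with Control-SU and Gem-SU. Right, percent of library counts taken by collagen classes. The Col1a1 to Col1a2 ratio lies at 5.63 to 6.16 with Control-SU and 9.71 to 10.5 with Gem-SU, and the type IV share overlaps between the groups.

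Other genes of collagen maturation, receptors and the TGF-beta pathway, the main inducer of collagen genes in stellate cells, were read from lists outside the members. Of 19 tested genes of collagen maturation 2 rose and 9 fell in PSC4, beside 24.3% of all genes higher and 22% lower, with a median log2 fold change of -0.57. Lower were Pcolce, the enhancer of Bmp1 (834 ± 186 against 348 ± 157 CPM, log2 fold change -1.26), Adamts2, the procollagen N-proteinase (-1.10), and the folding helpers Fkbp7 (-1.36), Fkbp14 (-1.05), P3h4 (-1.03), P3h3 (-0.71), Crtap (-0.65) and Ppib (-0.57), with the secretory transcription factor Creb3l1 (-0.64). Higher were P4ha1 (0.45), the main catalytic prolyl 4-hydroxylase subunit, and Tll1 (2.25), a relative of Bmp1 at no more than 3.15 CPM. The list gave 4 calls in place of 11 without Gem-SU replicate 2, 6 without Control-SU replicate 1 or replicate 3, and 7 without Gem-SU replicate 3.

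Of 8 collagen receptors and uptake genes 3 were called, beside 46.3% of all genes. Itga1, a collagen-binding integrin, fell (38.2 ± 7.46 against 11.2 ± 0.538 CPM, log2 fold change -1.76, edgeR adjusted p = 0.000255). Its relatives Itga2 and Itga10 rose by 2.02 and 0.76 on the log2 scale (edgeR adjusted p = 0.00429 and 0.0301). Of 14 TGF-beta pathway genes 5 rose and 3 fell, a called share near that 46.3%. Among those that rose were the targets Smad7 (6.54 ± 1.82 against 43.1 ± 6.29 CPM, log2 fold change 2.72), Ccn2 (2.43) and Skil (1.15) and the receptor Tgfbr1 (0.51). The receptors Tgfbr3 (527 ± 54.5 against 148 ± 16.8 CPM, log2 fold change -1.83) and Tgfbr2 (-1.03) fell, as did the ligand Tgfb3 (-0.51). The median over this list was 0.07.

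Several markers of mesenchymal and stellate cells fell in PSC4, and others did not. Of the 12 markers listed, 4 are members themselves (Col1a1, Col1a2, Col3a1 and Col4a1). Of the other 8, 5 fell and none rose, beside 22% of all genes lower and 24.3% higher. Their sum, most of it Vim and Pdgfra, was 2964, 3938 and 3242 CPM with Control-SU and 1177, 870 and 843 CPM with Gem-SU. Pdgfra, a receptor that defines fibroblasts, fell to 128 ± 36.2 CPM (log2 fold change -3.30, edgeR adjusted p = 5.98e-05) and Vim to 593 ± 102 CPM (-1.49, edgeR adjusted p = 0.00109). Acta2 did not pass, at 26.9 ± 10.1 CPM with Gem-SU (log2 fold change 0.78, edgeR adjusted p = 0.0538). With the replicate block Acta2 was called higher (0.72, edgeR adjusted p = 0.00567). Des and Fap did not pass (log2 fold change 0.25 and -0.38, edgeR adjusted p = 0.587 and 0.604). The epithelial sum in PSC4 was 3.54 to 6.06 CPM with Control-SU and 10.2 to 14.8 CPM with Gem-SU, with 1 of 3 tested markers called (Krt19, 2.95 ± 0.815 against 7.64 ± 1.28 CPM) and Cldn7 at 0 in all Gem-SU libraries, beside 6820 ± 751 CPM in KPC4. The leukocyte sum, of Cd68 and Csf1r only and mostly Cd68, lay between 3.66 and 5.36 CPM in all 6 libraries. Csf1r alone was at 0.337 ± 0.0847 against 0.872 ± 0.244 CPM, without overlap and not called (edgeR adjusted p = 0.0558). The endothelial sum lay at 0.609 to 1.43 against 2.70 to 4.85 CPM, with Kdr called. Epcam, Cdh1, Cldn4, Esrp1, Ptprc, Adgre1 and Cd3e were not analysed in PSC4. The part of any of these markers in the collagen result was not tested.

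The second comparison asked how tumour cells differ after medium of stellate cells that had seen Gem-SU rather than Control-SU. KPC4 made a different set of collagens at low total level, and no member passed the test there. Collagen chains made up 0.137 ± 0.0158% of counts with Control-PSC-SU and 0.130 ± 0.0297% with Gem-PSC-SU (SD, n = 3), within the spread. Per length, Col18a1, a basement membrane multiplexin, stood at 84.2 ± 18.4 RPKM and Col4a1 at 76.3 ± 4.04 RPKM with Control-PSC-SU, which did not differ beyond their spread, and Serpinh1 at 58.4 ± 12.5, Plod3 at 43.9 ± 5.53 and Col4a2 at 40.2 ± 1.09 RPKM followed. Col1a1 was at 1.34 ± 0.448 RPKM.

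Of the 40 members with a row, 30 were tested in KPC4 and 0 were called, beside 0 of 13236 genes (0%) in edgeR's quasi-likelihood test. At an unadjusted p under 0.05 there were also 0 members, beside 17% of all genes, and DESeq2 called 0 members and 823 genes. Groups did not overlap for 0 of the 30 members, beside 22.8% of all genes. The median log2 fold change was -0.17 over the tested members and -0.02 over all genes. Same-numbered KPC4 libraries deviated together, and edgeR with that number as a block called 1 member, Col6a2, beside 8.85% of all genes. Col6a2 was at 16, 5.13 and 8.37 CPM with Control-PSC-SU and at 27.9, 7.56 and 24.6 CPM with Gem-PSC-SU. It was higher with Gem-PSC-SU within each number, although the groups overlapped (log2 fold change 1.03, SE 0.53, edgeR adjusted p = 0.359 without the block, and 0.98 with adjusted p = 0.0413 with the block). Its values moved with Col6a1, at 34.4, 11.9 and 24.7 against 55.8, 14.5 and 43.3 CPM (edgeR adjusted p = 0.512, and 0.0617 with the block).

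The other 3 members with the smallest p in KPC4 were lower on average with Gem-PSC-SU, with overlapping groups. Col12a1, a FACIT chain of stressed tissue, was at 4.58, 1.93 and 1.57 against 1.75, 1.05 and 1.28 CPM (log2 fold change -0.99, SE 0.51, edgeR adjusted p = 0.358). Col11a1 was at 18.2, 8.92 and 14.5 against 10.5, 9.86 and 7.88 CPM (-0.56, SE 0.29, edgeR adjusted p = 0.364), and Bmp1 at 71.6, 63.2 and 88.7 against 63.4, 52.5 and 59.0 CPM (-0.35, SE 0.19, edgeR adjusted p = 0.376). None passed the test. The type I and III chains were scarce: Col1a1 was at 11.0, 6.55 and 6.23 against 7.59, 4.49 and 5.43 CPM (-0.44, SE 0.32, edgeR adjusted p = 0.504), Col3a1 at 21.4, 18.1 and 26.2 against 23.7, 10.7 and 22.5 CPM (-0.21, SE 0.31, edgeR adjusted p = 0.756), and Col1a2 had 7, 6 and 3 against 0, 13 and 11 counts and was not tested. Their groups overlapped. The type IV chains lay close together between the groups, with Col4a1 at 504, 478 and 532 against 508, 450 and 511 CPM (-0.04, SE 0.15, edgeR adjusted p = 0.907) and Col4a2 at 251, 261 and 265 against 289, 254 and 291 CPM (0.10, SE 0.15, edgeR adjusted p = 0.749). The ratio of Col4a1 to Col4a2 counts averaged 1.95 ± 0.102 against 1.76 ± 0.00664, and that of Col6a1 to Col6a2 2.48 ± 0.420 against 1.89 ± 0.123 (SD, n = 3; exact permutation p = 0.1 for each). Of the tested genes of collagen maturation (21), receptors (5) and the TGF-beta pathway (14), edgeR called 0 in KPC4. With the replicate block it called Itga1 and Ddr1, lower (log2 fold change -0.76 and -0.63, adjusted p = 0.028 and 0.0432), and Smad7, higher (0.84, adjusted p = 0.0183).

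Whether the change differed between the lines was tested as an interaction over all 12 libraries, on the genes in both tables. Of 38 members tested, 8 were called, 1 more positive and 7 more negative in PSC4, beside 9.85% of 13632 genes (4.75% more positive and 5.1% more negative). The filter ran over all 4 groups, so that a member could enter through its counts in 1 line alone. Only 28 members were also tested in each line by itself, and 7 of the calls are among them. The remaining call, Col1a2, was too scarce to test in KPC4. Line and transfer step differ together in this design, so that they cannot be told apart, and levels below are CPM scaled over all 12 libraries. Plod2 went from 36.5 ± 4.28 to 123 ± 19.0 CPM in PSC4 and from 114 ± 8.82 to 76.3 ± 47.2 CPM in KPC4 (SD, n = 3). By library, scaled within the line, KPC4 was at 103, 118 and 117 CPM with Control-PSC-SU and at 126, 55.8 and 42.0 CPM with Gem-PSC-SU, where the first library lay above all controls. Its log2 change was 2.33 more positive in PSC4 (SE 0.45, edgeR adjusted p = 0.00685), and 2.94 without Gem-PSC-SU replicate 1. Col6a3 went from 249 ± 1.99 to 81.9 ± 1.33 CPM in PSC4 and from 1.87 ± 0.542 to 2.55 ± 0.956 CPM in KPC4, a log2 change 2.05 apart (difference -2.05, SE 0.34, edgeR adjusted p = 0.00304). These were the 2 members called under every alternative run.

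For the other type VI chains the difference was -2.54 for Col6a2 (SE 0.64, edgeR adjusted p = 0.0256) and -2.44 for Col6a1 (SE 0.63, edgeR adjusted p = 0.0279). Both fell in PSC4, while their KPC4 means were 9.98 ± 5.65 and 20.6 ± 11.4 CPM for Col6a2 and 24.0 ± 11.4 and 38.9 ± 22.2 CPM for Col6a1. Among fibrillar chains it was -2.57 for Col1a2 (SE 0.75, adjusted p = 0.0467), -2.38 for Col3a1 (SE 0.59, adjusted p = 0.0248) and -1.31 for Col11a1 (SE 0.34, adjusted p = 0.0273). Col1a2 reached no more than 13 counts in KPC4, which leaves its KPC4 change poorly measured. Loxl3 differed by -1.08 (SE 0.28, edgeR adjusted p = 0.029). By library, scaled within the line, Loxl3 stood in KPC4 at 5.68, 3.97 and 4.92 CPM with Control-PSC-SU and at 7.05, 4.46 and 5.46 CPM with Gem-PSC-SU, with overlap. Without Gem-SU replicate 1 the difference for Col3a1 was -3.14. Without single libraries between 2 and 11 members were called: 2 without Gem-SU replicate 2, and 3 without Control-SU replicate 3, Gem-SU replicate 3, Control-PSC-SU replicate 2 or 3 or Gem-PSC-SU replicate 3. In the fit of all libraries Col1a1, at -0.58 (SE 0.37, edgeR adjusted p = 0.344), was not called. With replicate as a block 14 members were called, beside 21.9% of all genes.

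**Figure D4:**
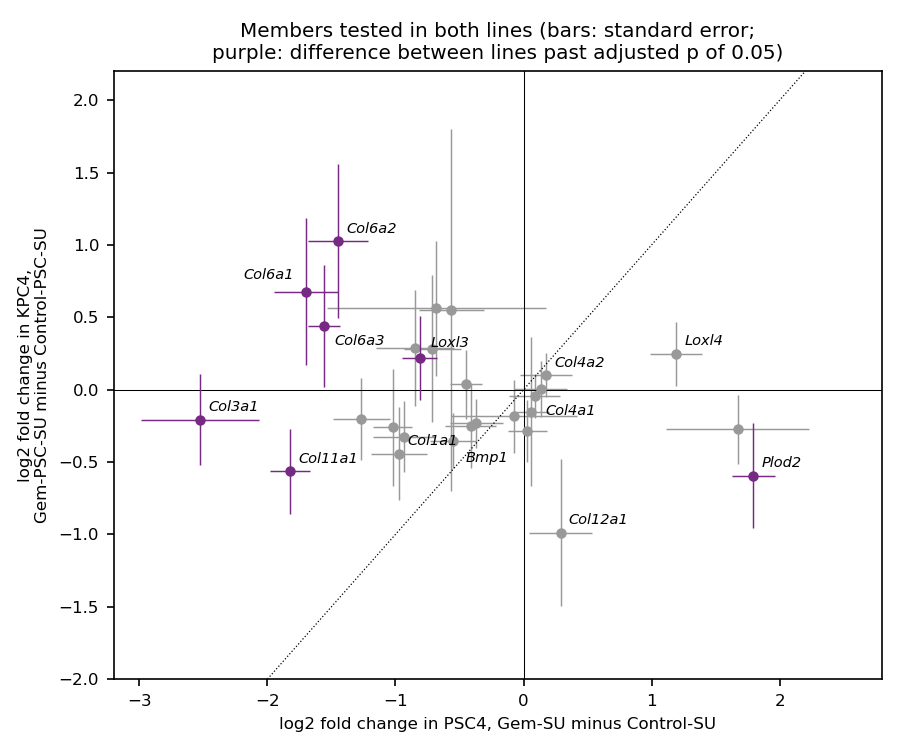
Log2 fold change in KPC4 (vertical axis, Gem-PSC-SU against Control-PSC-SU) against that in PSC4 (horizontal axis, Gem-SU against Control-SU) for the 28 members tested in both lines. The 7 of them whose change differed between the lines are purple and lie away from the diagonal of equal change, Plod2 at the right and the others at the left.

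The authors' deposited table calls 24 of the 51 members at an adjusted p of 0.05 in PSC4, 6 higher and 18 lower, beside 42.9% of its genes. Of these, 21 are among the 25 called here, and of 45 members tested in both, 44 have the same sign. The authors' deposited table calls Col18a1 (log2 fold change -0.73), Col15a1 (-3.08) and Col24a1 (-4.42), and not Bmp1, Col27a1, Col28a1 or P4ha3, which passed here. In KPC4, of 30 members tested in both, 24 have the same sign. Those that differ include Col1a1 (log2 fold change 0.23 by the authors, -0.44 here) and Col4a1 (0.05 and -0.04), called in neither. There the authors' deposited table calls 1 of 40 members, Col6a3 (log2 fold change 1.54, adjusted p = 0.0251), beside 5.17% of its genes. From the counts Col6a3 in KPC4 was at 2.45, 1.48 and 1.57 against 3.53, 1.98 and 1.96 CPM (log2 fold change 0.44, edgeR adjusted p = 0.614), and the cause of the difference was not tested.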

How the data were processed

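Raw counts per gene and library, as whole numbers, are the values the authors deposited for each line, and the authors' comparison tables give log2 fold changes and p-values per gene. The submitters' processing notes name GRCm39, FastQC, Trim Galore 0.6.10, cutadapt 5.2, Salmon, R 4.5.1 and DESeq2 without roles, and the annotation and strand setting are not given in the sources used here. The labels' protocols name a NovaSeq X Plus as sequencer.

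Symbols came from GENCODE M21, matching 16329 of 16386 identifiers in PSC4 and 15265 of 15309 in KPC4. Transcript lengths are of GRCm38 and may differ from the models counted. Overlapping genes and near-identical copies are uncertain.

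Each line was fitted on its own in edgeR 4.0.16 (R 4.3.3, limma 3.58.1): filterByExpr, TMM, robust quasi-likelihood test, Benjamini-Hochberg at 0.05. The test was tried on simulated data with the same dispersion for all genes and no pairing, unlike these data. Its outcome is not used here. The interaction used all 12 libraries and genes in both tables. Alternatives were DESeq2 1.42.0, its size factors, no filter, at least 10 counts per library, the replicate block, robust estimation off, one fit, and leaving out each library. P-values of edgeR set the change against the spread of libraries within groups, pooled over groups and moderated over all genes. Counting error matters only for the scarcest genes.

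Values per library are given for PSC4 members past 0.05 with a 2-fold change and a mean of 50 counts, for Col1a1, Col1a2, Col3a1, Col4a1, the lysyl oxidases and partner chains, and in KPC4 for the 4 members with the smallest p, the same marker chains and Col4a2, and for all interaction calls. The values of 1 gene of the TGF-beta list are not reported here. Members and lists were chosen with earlier results of these data known. Same-numbered libraries correlated in their deviations from group means at 0.450, 0.545 and 0.355 in KPC4, a pairing read from the values alone. In PSC4 these correlations were 0.599, -0.03 and 0.101, and the libraries were not taken as paired. The main fits of both lines and of the interaction used no block, and fits with the block are given as alternatives.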

Additional observations from a re-analysis of the deposited data

Results flagged for a closer look

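The change between Gem and Control differed between PSC4 and KPC4, by the interaction test of edgeR over all 12 libraries, for 8 members. Over all 13632 genes tested, 9.85% were called. The difference of the log2 fold changes, PSC4 minus KPC4, was 2.33 for Plod2, -2.05 for Col6a3, -2.54 for Col6a2, -2.44 for Col6a1, -2.38 for Col3a1, -2.57 for Col1a2, -1.31 for Col11a1 and -1.08 for Loxl3. Col1a2 was too scarce to test in KPC4 by itself and passed the filter through PSC4, so its difference is poorly measured. Plod2 and Col6a3 were called under all 18 alternatives run. The other 6 were each lost under several. Col1a2 was lost in 10 of the 17 alternatives that tested it. Of 18 alternatives, Col6a1 was lost in 9, Loxl3 in 8, Col6a2 in 7, and Col11a1 and Col3a1 in 5 each. Adjusted p-values of edgeR or DESeq2 reached 0.159 for Col1a2, 0.0802 for Loxl3, 0.0772 for Col11a1, 0.0766 for Col6a1, 0.0712 for Col6a2 and 0.0689 for Col3a1.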

How the results depend on the processing

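In PSC4, 13 of the 25 called members were called under all 13 alternatives and 17 in every fit that left out a library, where between 17 and 27 members and between 4061 and 6826 genes were called. Of the 12 others, 8 were lost without Gem-SU replicate 2 (17 called), and Lox, Col2a1, Col5a2, Col22a1 and Col28a1 could not enter the one fit of both lines (18 called) for lack of a row in KPC4. Col2a1 and Col22a1, scarce with Control-SU, were also lost with the filter of at least 10 counts in every library (23 called). The collagen maturation list gave 4 to 12 calls with a library left out. With a library left out, log2 changes that had not passed turned direction for Col4a1 in PSC4 (-0.11 to 0.18, with -0.11 without Control-SU replicate 2 and -0.02 without Gem-SU replicate 1) and Col4a2 in PSC4 (-0.023 to 0.26, the former without Control-SU replicate 2), and in KPC4, without Gem-PSC-SU replicate 2, for Col3a1 (-0.40 to 0.076) and Col4a1 (-0.076 to 0.014).

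In KPC4 the replicate block gave 1 called member, 1171 genes, 2 receptors and 1 TGF-beta gene. DESeq2 gave 823 genes and one fit of both lines 610. Leaving out a library gave 0 to 1 member (Plod2, without Gem-PSC-SU replicate 1), 0 to 1129 genes, 0 to 1 receptor and 0 to 2 TGF-beta genes. The interaction gave 14 members with the block, beside 21.9% of all genes, and 2 to 11 members with a library left out. In PSC4 same-numbered libraries correlated at 0.599, -0.03 and 0.101, which leaves pairing unsettled. With the block, edgeR gave 26 members and 7266 genes there, adding Loxl1 (adjusted p = 0.00448). The cause of these shifts was not tested. Scaling by DESeq2's size factors moved the median of all genes from -0.00 to -0.01 in PSC4 and changed no member call. Chains under about 1 CPM rest on few counts, and their folds are poorly measured at this depth.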
